A study of Mus musculus with 21 samples.

Results

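The 9 genes described here carry the interferon signal from ligand to nucleus: the ligand gene Ifnb1, the type I receptor genes Ifnar1 and Ifnar2, the type II receptor genes Ifngr1 and Ifngr2, the kinase genes Jak1, Jak2 and Tyk2, and the transcription factor gene Stat2. They were chosen by name, not by their values, and were found in the deposited gene table through the Ensembl ID without its version. All 9 were found among 23250 genes, and all 9 passed the filter on low counts that left 13468 genes for testing.

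RNA was sequenced from bone-marrow-derived mouse macrophages of the C57BL/6J background, grown from flushed femurs and tibias for 7 days with 2.5% supernatant of cells that secrete GM-CSF. According to the study's design text, all cells lacked the mannose receptor, which Mrc1 encodes, so that untreated, isotype and FcMR groups shared this deficiency. FcMR is a recombinant protein in which the extracellular part of the mannose receptor is joined to a human IgG1 Fc part, and the study used it to ask how soluble receptor acts on macrophages. The 7 groups held 3 libraries each, 21 in all: untreated cells taken at 0 h, and macrophages treated with FcMR, or with the isotype control, over 4, 12 or 24 h. The labels name no genotype per library, no age of the mice and no protein for the isotype control. They do not say whether replicates came from separate mice or cultures, so p-values measure the spread between these libraries, which may be technical.

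Interferon beta, the product of Ifnb1, is secreted by macrophages that sense microbes or nucleic acids and binds the receptor of IFNAR1 and IFNAR2, to which the kinases TYK2 and JAK1 are bound. These kinases activate STAT2, which acts in a complex with IRF9 and switches on interferon-stimulated genes, Stat2 itself among them. Interferon gamma, made mainly by T and NK cells, acts through IFNGR1 and IFNGR2 with JAK1 and JAK2. JAK2 also serves receptors for other cytokines, such as the GM-CSF in which these cells were grown.

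Library totals ran from 5532225 to 66729533 estimated counts, a 12.06-fold range, and 3 counts corresponded to 0.045 to 0.542 CPM (a gene's counts divided by its library's total, on a fixed scale). Mrc1 was at or near this limit in every library, with 0 to 11 counts. Libraries of 1 group could differ in how strongly GC-rich transcripts were represented, measured as a GC tilt: how far genes with a transcript GC of 57.7% or more stood, in mean log2 level, above genes with 42.3% or less, taking the average library as 0. The tilt ran from −1.59 to 0.642 among the isotype 4 h libraries and from −0.731 to 0.797 among the FcMR 12 h libraries. FcMR 12 h replicate 1 and isotype 4 h replicate 3 also stand in each other's place in the order of the library numbers in the titles. The former had a tilt of −0.731, its group's other libraries 0.7 and 0.797. The latter had 0.642, its group's other libraries −0.832 and −1.59. Jak2, at 757 and 592 CPM, was nearer to the other group's remaining libraries in both. Ifnar2, at 129 and 84.2 CPM, was nearer to those of the own group. Whether the 2 were swapped was not tested. All 10 macrophage markers were detected, at a summed 21430 to 36161 CPM, and all 8 dendritic cell markers at 1350 to 1862 CPM. Most of the macrophage sum was Lyz2, at 16643 to 30533 CPM, and most of the dendritic cell sum was Itgax, at 853 to 1233 CPM. The sums therefore do not measure the share of each cell type. NK cell genes Ncr1, Eomes, Gzma and Prf1 were at 3 counts or less in every library or not in the table. The NK cell gene Klrb1c was detected, at a mean of 1.73 CPM with isotype and 1.88 CPM with FcMR at 24 h. The T cell genes Cd3e, Cd3d and Cd3g reached at most 0.515 CPM, but Lck reached 3.65 CPM and Cd8a 3.01 CPM. All 7 T cell markers summed to 5.52 to 6.58 CPM with FcMR and 3.59 to 5.56 CPM with isotype at 4 h.

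The genes lie on 5 chromosomes of GRCm38. Ifnb1 (ENSMUSG00000048806.4, chr4:88522025-88522774, minus strand) and Jak1 (ENSMUSG00000028530.14, chr4:101152367-101265282, minus strand) share chromosome 4. Ifngr1 (ENSMUSG00000020009.12, chr10:19591949-19610229, plus strand) and Stat2 (ENSMUSG00000040033.16, chr10:128270559-128292849, plus strand) are on chromosome 10. Jak2 (ENSMUSG00000024789.12, chr19:29251828-29313080, plus strand) and Tyk2 (ENSMUSG00000032175.11, chr9:21104068-21131243, minus strand) stand alone. Ifnar2 (ENSMUSG00000022971.18, chr16:91372783-91405589), Ifnar1 (ENSMUSG00000022967.12, chr16:91485238-91507441) and Ifngr2 (ENSMUSG00000022965.7, chr16:91547072-91565623) are neighbours on the plus strand within 192841 bases, and Il10rb (chr16:91406164-91425834), a receptor gene for interleukin 10 and lambda interferons, lies between the type I receptor genes.

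Promoters are printed for Ifnb1, the ligand gene, Stat2, the only member called by the joint test over time, and Ifnar2, the receptor gene called with FcMR at every time, as the 250 bases before the transcription start in RefSeq (GRCm38.p6), 5′ to 3′ on the gene's strand. Capitals mark matches, on either strand, to the core of the interferon-stimulated response element (GAAA, any 2 bases, GAAA), to a looser IRF core (AANNGAAA), to the gamma-activated site (TTCNNNGAA) or to an NF-kB site (GGG, any 5 bases, CC). The motifs and the window were chosen with these genes and a first look at their sequences known.
Ifnb1 (chr4:88522795-88523044, minus strand): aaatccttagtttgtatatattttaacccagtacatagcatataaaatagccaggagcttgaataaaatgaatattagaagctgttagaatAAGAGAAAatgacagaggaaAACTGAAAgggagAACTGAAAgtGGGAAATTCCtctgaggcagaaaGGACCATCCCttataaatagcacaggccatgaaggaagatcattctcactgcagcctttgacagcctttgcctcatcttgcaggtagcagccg
Stat2 (chr10:128270248-128270497, plus strand): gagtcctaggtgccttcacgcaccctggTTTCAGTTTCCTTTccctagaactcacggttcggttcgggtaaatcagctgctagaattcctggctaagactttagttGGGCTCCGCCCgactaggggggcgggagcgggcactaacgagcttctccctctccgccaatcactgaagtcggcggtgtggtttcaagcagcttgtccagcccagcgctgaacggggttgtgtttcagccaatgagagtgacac
Ifnar2 (chr16:91372533-91372782, plus strand): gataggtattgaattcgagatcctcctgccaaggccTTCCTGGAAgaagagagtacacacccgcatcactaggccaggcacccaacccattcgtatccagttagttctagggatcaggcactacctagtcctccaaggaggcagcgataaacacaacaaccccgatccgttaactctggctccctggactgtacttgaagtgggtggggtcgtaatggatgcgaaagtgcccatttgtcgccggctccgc

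The Ifnb1 promoter held 3 IRF cores and 2 NF-kB matches within 159 bases of the start, of which GGGAAATTCC begins 116 bases before it. The Stat2 promoter held the response element on the opposite strand, read here as TTTCAGTTTC from 222 to 213 bases before the start, with 2 overlapping IRF cores, and 2 NF-kB matches that overlap each other. In the Ifnar2 promoter the only match was a gamma-activated site, TTCCTGGAA, from 214 to 206 bases before the start. Of 32851 mouse promoters of the same length, 2.98% held the response element core, 21.3% the IRF core, 7.02% the gamma-activated site and 45.8% the NF-kB site. Stat2 was the only member with the response element core in this window and Ifnar2 the only member with the gamma-activated site. A gamma-activated site match of Ifnar1 crosses the transcription start and so falls outside the window, which was set after a first look at the sequences. The windows of Ifnar1 and Jak2 held no match. Such matches describe letters only, and no binding was measured.

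Against the isotype control, Ifnb1, Stat2, Ifnar2 and Jak2 were higher with FcMR at 4 h, and no member fell by the test. At 12 h Ifnar2 and Jak2 were higher, and at 24 h Ifnar2 and Jak2 were higher and Ifngr1 lower. Ifnar1, Ifngr2, Jak1 and Tyk2 were not called at any time. Calls are genes whose p from edgeR's quasi-likelihood test, adjusted by Benjamini-Hochberg over all 13468 genes, was under 0.05. Thus 4 of 9 members were called at 4 h where 17.7% of all genes were, 2 of 9 at 12 h against 16.1%, and 3 of 9 at 24 h against 20.9%. Genes called lower, as Ifngr1 was at 24 h, were 9.13%, 7.49% and 9.44% of all genes at the 3 times.

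Ifnb1 passed the filter only through its 3 FcMR 4 h libraries, so its call at 4 h was built in. Without it 3 of 8, 2 of 8 and 3 of 8 members were called. Genes called higher were 8.62%, 8.61% and 11.4% of all genes. At 4 h they were 1161 against 1229 lower, a split that other scalings shifted to 1412 against 839 (RLE factors) or 1236 against 612 (the authors' factors). The groups did not overlap for 8 of 9 members at 4 h, 7 at 12 h and 5 at 24 h, where 29.7%, 35.4% and 34.4% of all genes did not. For Ifnb1 the separation at 4 h was built in too. Without it the groups were apart for 7, 7 and 5 of 8 members. The median log2 difference of the members was 0.25, 0.15 and 0.15 at the 3 times (0.23, 0.20 and 0.14 without Ifnb1), where that of all genes was −0.07, −0.02 and 0.01.

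**Figure D1:**
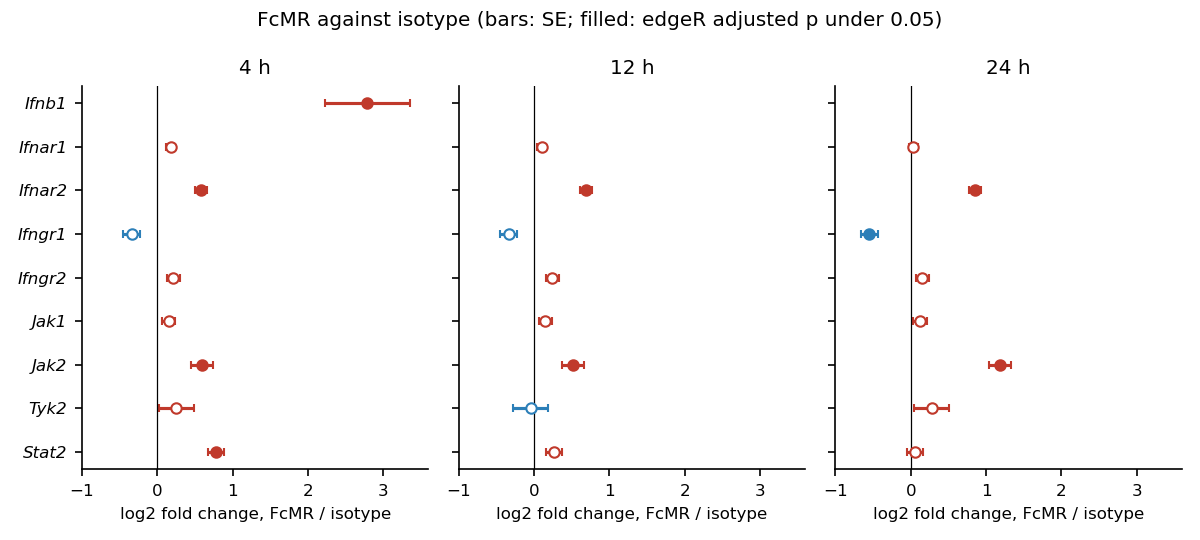
Log2 fold change of FcMR over isotype for each gene at 4, 12 and 24 h, with its standard error from edgeR (3 libraries per group; red above 0, blue below 0; filled where the adjusted p was under 0.05). Ifnar2 and Jak2 are filled at every time, Stat2 and Ifnb1 at 4 h and Ifngr1 at 24 h; Ifnb1 is left out at 12 and 24 h, where both groups had at most 16 counts per library.

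The ligand gene Ifnb1 was near the detection limit everywhere but in cells given FcMR for 4 h. There its counts were 44, 115 and 18 (3.12, 4.33 and 3.35 CPM), while the isotype 4 h libraries held 7, 1 and 3 (1.01, 0.180 and 0.348 CPM). All 3 FcMR libraries lay above all 3 isotype libraries. Over the summed counts, 177 against 11, the level was 6.34-fold higher (95% exact interval 3.46 to 12.9, for counting error only). The fitted log2 difference was 2.79 (SE 0.56, edgeR adjusted p = 0.00194), for a gene that entered the test only through these FcMR libraries. Without an expression filter it was 2.90 (adjusted p = 0.00214).

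The excess of Ifnb1 was not seen later. Counts were 2, 2 and 3 in the FcMR 12 h libraries and 4, 1 and 16 in the isotype 12 h libraries, a ratio of 0.639 (0.229 to 1.56) per count sequenced. At 24 h they were 1, 5 and 0 against 1, 1 and 0, a ratio of 1.77 (0.316 to 17.9). Both intervals include equality, and the 24 h interval also includes the ratio seen at 4 h. The joint test for a difference between the FcMR effects of the 3 times gave an adjusted p of 0.0572 for Ifnb1, and 6 of 26 alternatives called it, among them the fits without isotype 4 h replicate 1 (0.0288) and without FcMR 24 h replicate 3 (0.0426). Untreated cells held 3, 1 and 0 counts. Of 19 other interferon genes looked for, only Ifng, the gene of interferon gamma, was in the table, with at most 3 counts in any library, and it was not tested.

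Markers of plasmacytoid dendritic cells, which make large amounts of type I interferon, were higher in sum with FcMR at 4 h, but not each of them. Their 8 genes, all detected and 7 tested, summed to 94.8 to 103 CPM in the FcMR 4 h libraries and to 57.2 to 69.9 CPM in the isotype 4 h libraries. The rise in this sum came from Tcf4, a transcription factor gene also used outside these cells, at 80.1 against 40.7 CPM on average. Spib was lower on average, at 8.95 against 14.8 CPM, and so was Cox6a2, at 4.12 against 4.44 CPM. Ccr9, Ly6d, Pacsin1 and Klk1 were higher, each at a mean of at most 1.94 CPM with FcMR. Siglech, a surface gene that defines these cells, averaged 0.750 against 0.469 CPM and reached at most 1.55 CPM, in any group. Stromal and endothelial markers summed to 113 to 123 against 57.2 to 61.8 CPM at 4 h, mostly through Kdr (108 against 52.2 CPM), with Col1a2 at 3 counts or less or not in the table. The part of such cells in the result was not tested. In bulk RNA, fewer cells of a type and less RNA per cell cannot be told apart.

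**Figure D2:**
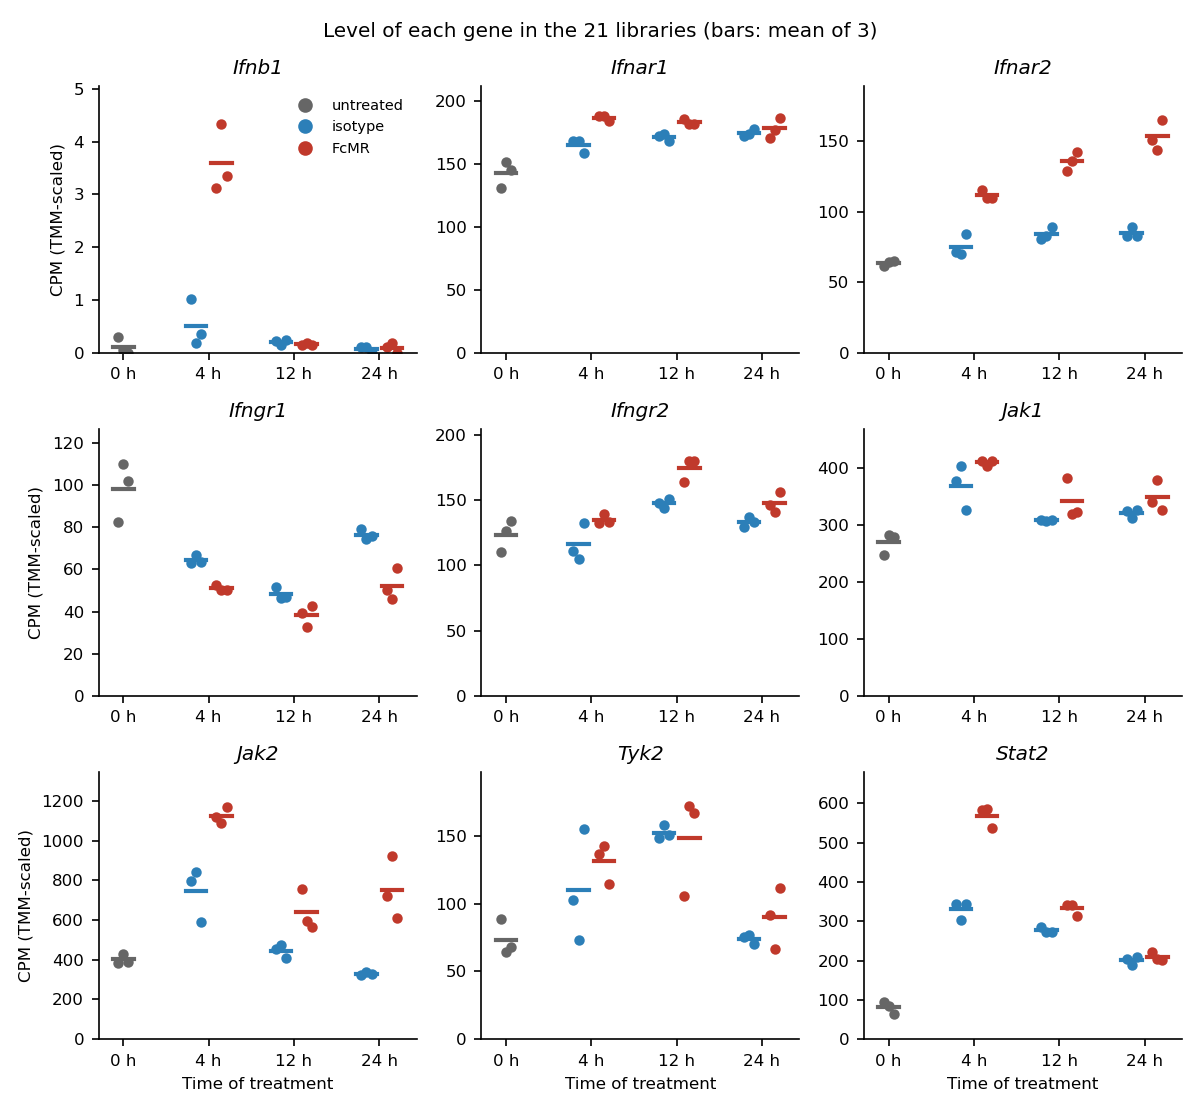
Level of each gene in every library, in CPM after TMM scaling, for untreated (grey), isotype (blue) and FcMR (red) cells by hours of treatment; points are libraries and bars the mean of 3. Ifnb1 stands out in the 3 FcMR 4 h libraries (3.12 to 4.33 CPM), Ifnar2 is higher with FcMR at each time, and Stat2 peaks at 4 h.

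The subunits of the type I receptor responded unequally. Ifnar2, the subunit that binds interferon with high affinity, was higher with FcMR at every time. At 4 h its levels were 115, 110 and 110 CPM with FcMR and 71.1, 69.6 and 84.2 CPM with isotype. At 12 h they were 129, 136 and 142 CPM against 80.7, 82.9 and 89.3 CPM. At 24 h they were 151, 144 and 165 CPM against 82.5, 88.8 and 82.8 CPM.

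The Ifnar2 groups did not overlap at any time, and every treated library lay above the untreated libraries (61.4, 64.0 and 65.3 CPM). The log2 differences between FcMR and isotype were 0.57 (SE 0.080, adjusted p = 6.33e-05), 0.69 (SE 0.079, adjusted p = 5.94e-06) and 0.85 (SE 0.079, adjusted p = 3.16e-07) at 4, 12 and 24 h by edgeR. These calls held under all 16 alternatives tried at each time. Whether the effect changed over time was not called (adjusted p = 0.238).

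In descending order the group means of Ifnar2 were FcMR 24 h, 12 h and 4 h, then isotype 24 h, 12 h and 4 h, then untreated. Libraries of neighbouring groups in this order overlapped only between isotype 24 h and 12 h and between isotype 12 h and 4 h. The counts do not separate the membrane-bound form of IFNAR2 from the soluble form that alternative splicing of this gene gives. Ifnar2 also shares 315 exon bases with Gm21970, a gene model on the same strand with 6 to 682 counts per library, and the estimation could have moved reads between them.

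Ifnar1, the second subunit of this receptor, differed far less. It lay between 159 and 168 CPM with isotype and between 184 and 188 CPM with FcMR at 4 h, groups that did not overlap. The log2 difference was 0.18 at 4 h (SE 0.062, edgeR adjusted p = 0.0554), 0.10 at 12 h (adjusted p = 0.331) and 0.03 at 24 h (adjusted p = 0.781). Of 16 alternatives, 6 called the 4 h difference, among them RLE factors (0.24, adjusted p = 0.0259).

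Per length of all annotated exons (5940 bases for Ifnar1, 3329 for Ifnar2), Ifnar2 was below Ifnar1 in untreated cells and above it in all cells given FcMR. The transcripts present may have other lengths, so which of the genes stands higher depends on this choice. With any fixed lengths the ratio changes between groups by the same factor. The ratio of Ifnar2 to Ifnar1 was 0.798 ± 0.042 in untreated cells (SD, n = 3). With isotype it was 0.814 ± 0.115, 0.880 ± 0.061 and 0.867 ± 0.041 at 4, 12 and 24 h. With FcMR it was 1.07 ± 0.024, 1.32 ± 0.078 and 1.53 ± 0.073, and no FcMR library overlapped an isotype library of its time. Neighbours on chromosome 16 could differ in direction: at 24 h Il10rb, next to Ifnar2, was lower with FcMR (log2 difference −0.50, edgeR adjusted p = 1.58e-05), while Ifnar2 was higher.

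**Figure D3:**
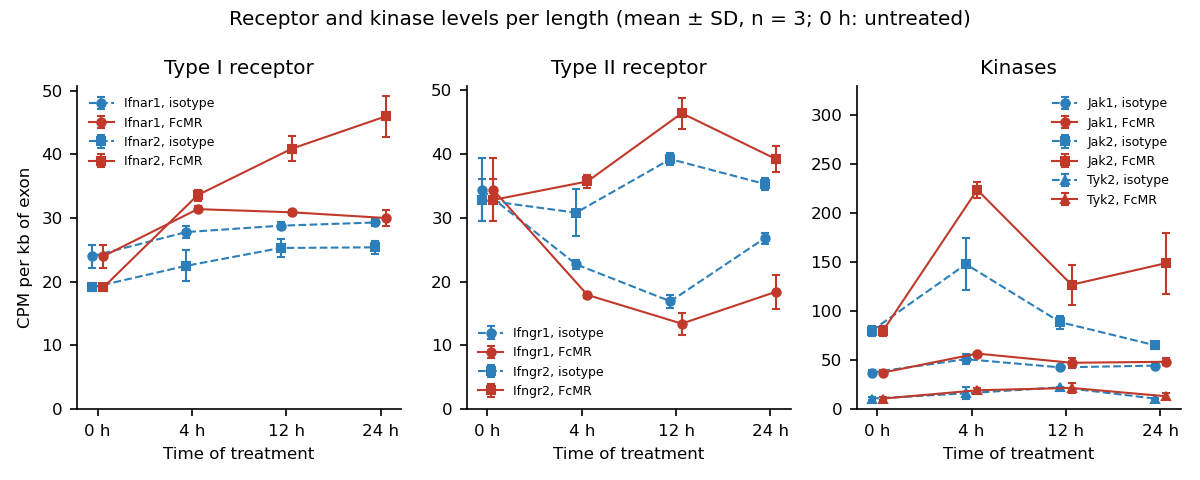
Levels in CPM per kilobase of exon (mean ± SD, n = 3) of the type I receptor, type II receptor and kinase genes, from untreated cells (0 h) through 4, 12 and 24 h of isotype (dashed blue) or FcMR (solid red); times are spaced evenly, not to scale. Ifnar2 crosses above Ifnar1 with FcMR, Ifngr1 falls below Ifngr2 with either treatment, and Jak2 is the highest of the kinases in every group.

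The type II receptor genes moved apart. Ifngr1, the subunit that binds interferon gamma, had its highest level in untreated cells, at 82.5, 102 and 110 CPM. With isotype it was at 63.2, 66.7 and 63.7 CPM at 4 h, 51.5, 46.2 and 46.9 CPM at 12 h and 79.0, 74.2 and 75.9 CPM at 24 h. With FcMR it was at 52.5, 50.3 and 50.3 CPM at 4 h, 39.2, 32.9 and 42.5 CPM at 12 h and 50.4, 46.0 and 60.6 CPM at 24 h.

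At each time all FcMR libraries lay below all isotype libraries for Ifngr1, and all treated libraries lay below the untreated ones. The log2 difference between FcMR and isotype was −0.55 at 24 h (SE 0.11, edgeR adjusted p = 0.00169), a call that all 16 alternatives kept. At 4 h it was −0.34 (adjusted p = 0.0506) and at 12 h −0.33 (adjusted p = 0.0553), just outside the threshold. The 4 h difference was called with the filter at a mean of 10 counts (adjusted p = 0.0486). The 12 h difference was called with GC correction (−0.36, adjusted p = 0.0324), with the replicate block and GC correction (−0.36, 0.0252) and without FcMR 12 h replicate 3 (−0.42, 0.0424). The effect was not called as different over time (adjusted p = 0.601).

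Ifngr2, the signalling subunit of the type II receptor, ranged from 105 to 132 CPM with isotype and 132 to 139 CPM with FcMR at 4 h. At 12 h the ranges were 144 to 151 and 164 to 180 CPM, and at 24 h 129 to 137 and 141 to 156 CPM. FcMR libraries were above isotype libraries each time, by a narrow margin at 4 h. The log2 differences of 0.21, 0.24 and 0.15 were not called (edgeR adjusted p = 0.101, 0.0635 and 0.256). At 4 h 6 of 16 alternatives called it, among them the fit without isotype 4 h replicate 3 (0.32, adjusted p = 0.0143), and at 12 h 7 of 16 did.

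The level of Ifngr2 over Ifngr1 per length was 0.958 ± 0.077 in untreated cells (SD, n = 3). It was 1.36 ± 0.188, 2.32 ± 0.132 and 1.32 ± 0.078 with isotype at 4, 12 and 24 h, and 1.99 ± 0.091, 3.50 ± 0.549 and 2.15 ± 0.186 with FcMR. FcMR and isotype libraries did not overlap in this ratio at any time.

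Of the kinase genes, Jak2 was the member with the widest separation at 24 h. With FcMR it was at 1120, 1088 and 1168 CPM at 4 h, 757, 594 and 566 CPM at 12 h and 724, 921 and 611 CPM at 24 h. With isotype it was at 798, 845 and 592 CPM at 4 h, 454, 475 and 411 CPM at 12 h and 322, 336 and 328 CPM at 24 h. The FcMR libraries were above the isotype libraries each time, while untreated cells, at 383, 431 and 391 CPM, lay above the isotype cells of 24 h.

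The log2 differences of Jak2 between FcMR and isotype were 0.59 (SE 0.15, adjusted p = 0.00762), 0.52 (SE 0.15, adjusted p = 0.0183) and 1.19 (SE 0.15, adjusted p = 8.72e-06) at 4, 12 and 24 h by edgeR. The 12 h call was lost without FcMR 12 h replicate 1 (0.38, adjusted p = 0.132), isotype 12 h replicate 1 (0.53, adjusted p = 0.0620) or isotype 12 h replicate 3 (0.46, adjusted p = 0.0947). The 4 h call was lost when only its 6 libraries were fitted (adjusted p = 0.0653). The 24 h call held in all 16 alternatives. The change over time was not called (adjusted p = 0.0618), though 7 of 27 alternatives called it. These were GC correction (adjusted p = 0.000199), the replicate block (0.0392), the block with GC correction (7.35e-05), the fit without both libraries out of title order (0.0031), and the fits without isotype 4 h replicate 3 (0.0132), FcMR 12 h replicate 1 (0.0297) or FcMR 24 h replicate 3 (0.0229).

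Jak1, which serves both interferon receptors, was between 403 and 413 CPM with FcMR and 327 and 403 CPM with isotype at 4 h. At 12 h it was at 320 to 383 against 307 to 309 CPM and at 24 h at 327 to 379 against 313 to 326 CPM. The log2 differences of 0.15, 0.15 and 0.12 were not called at any time or under any alternative (edgeR adjusted p = 0.266, 0.310 and 0.385). Tyk2, the partner of IFNAR1, overlapped between the groups at each time, with 115 to 143 against 73.1 to 155 CPM at 4 h, 106 to 172 against 149 to 158 CPM at 12 h and 66.9 to 112 against 70.3 to 77.0 CPM at 24 h. Its log2 differences were 0.25 (SE 0.23), −0.04 (SE 0.23) and 0.28 (SE 0.24), with edgeR adjusted p = 0.527, 0.951 and 0.477. Tyk2 shares 554 exon bases with the antisense gene 1700084C06Rik, whose counts (0 to 4) leave little to confuse it with. The 12 h value was 0.15 without FcMR 12 h replicate 1 (adjusted p = 0.831). Without both libraries out of title order Tyk2 was called at 4 h (0.58, adjusted p = 0.0290), and with GC correction at 24 h (0.37, adjusted p = 0.0218).

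The kinase levels followed the GC tilt of the libraries within groups. Over the deviations of the 21 libraries from their group means, the tilt correlated with Tyk2 at Pearson r = 0.973, with Jak1 at −0.956 and with Jak2 at −0.951, where the points of a group share their mean and the tilt is computed from the same libraries. It was 0.785 for Ifnar2, 0.659 for Ifngr2, −0.299 for Ifnar1, 0.167 for Stat2 and 0.030 for Ifngr1. Transcript GC was 54.4% for Tyk2, 53% for Jak1, 53.2% for Stat2 and 44.5% for Jak2. Genes of like GC thus went with the tilt in opposite directions or hardly at all. GC correction, a curve on transcript GC, shifts genes of like GC alike. FcMR 12 h replicate 1, the Jak2 outlier of its group at 757 CPM, had a tilt of −0.731 where its group's other libraries had 0.7 and 0.797. The FcMR 24 h libraries had tilts of −0.346, −1.26 and 0.41, and the isotype 24 h libraries of −0.0892 to −0.0277. With GC correction the Jak2 differences were 0.75, 0.43 and 1.10, all called by edgeR (adjusted p = 1.04e-07, 7.04e-05 and 4.40e-10). The reason for the tilt was not tested.

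**Figure D4:**
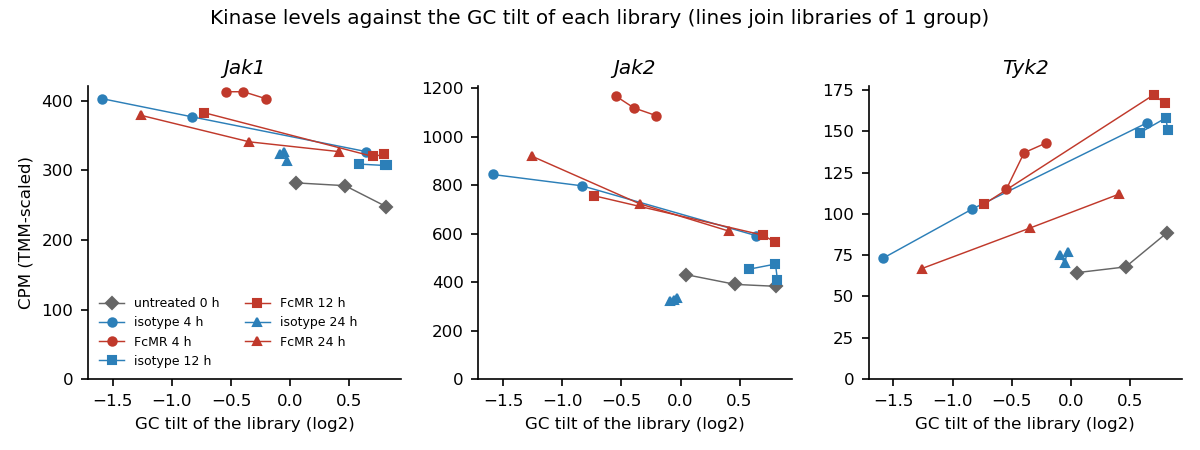
Level of the kinase genes Jak1, Jak2 and Tyk2 in each library (CPM after TMM scaling) against the GC tilt of the library (log2); colours mark untreated, isotype and FcMR cells, symbols the time, and lines join libraries of 1 group. Within groups Jak1 and Jak2 fall and Tyk2 rises with the tilt, and the FcMR 24 h libraries lie above the isotype 24 h libraries for Jak2.

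Per length of annotated exon, Jak2 was the highest of the kinase genes in every group. In untreated cells it was at 79.9 ± 5.18 CPM per kilobase (SD, n = 3), with Jak1 at 37.3 ± 2.56 and Tyk2 at 10.7 ± 1.89. The share of Jak2 in the summed level of the 3 was 54.2% ± 0.809 with isotype at 24 h and 70.45% ± 4.15 with FcMR. At 4 h these shares were 68.45% ± 4.40 and 74.7% ± 1.05, and at 12 h 57.7% ± 1.68 and 64.6% ± 3.65. The libraries of the groups did not overlap in this share at any time.

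Stat2, the factor that type I but not type II interferon signalling requires, differed between FcMR and isotype mainly at 4 h. At 4 h it was at 584, 585 and 538 CPM with FcMR and 344, 303 and 345 CPM with isotype. At 12 h it was at 342, 342 and 314 CPM against 286, 272 and 272 CPM, and at 24 h at 222, 203 and 202 CPM against 205, 189 and 209 CPM. The groups were apart at 4 and 12 h and overlapped at 24 h.

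The log2 difference of Stat2 was 0.78 at 4 h (SE 0.10, edgeR adjusted p = 3.74e-05), 0.27 at 12 h (SE 0.10, adjusted p = 0.0938) and 0.06 at 24 h (SE 0.10, adjusted p = 0.774). At 12 h DESeq2 (0.28, adjusted p = 0.0393), GC correction (0.35, 0.0281) and GC correction with the replicate block (0.35, 0.00525) called it. Stat2 was the only member whose FcMR effect differed over the 3 times by the joint test (adjusted p = 0.00724), which called 11% of all genes. All 27 alternatives kept this call (adjusted p = 8.61e-06 to 0.0300). In descending order the group means were FcMR 4 h, FcMR 12 h, isotype 4 h, isotype 12 h, FcMR 24 h, isotype 24 h and untreated, and libraries of neighbouring groups overlapped only between FcMR 12 h and isotype 4 h and between FcMR 24 h and isotype 24 h.

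In cells given the isotype control many members differed from untreated cells, and so did many of all genes. At 4 h 7 of 9 were called, 6 higher and Ifngr1 lower, where 35.6% of all genes were called (20.4% higher, 15.2% lower). At 12 h 6 of 9 were called, 5 of them higher, against 41.6% of all genes (22% higher, 19.6% lower). At 24 h 5 of 9 were called, 4 of them higher, against 42.2% (21.3% higher, 20.9% lower). Leaving out 1 library gave 3 to 4 of 9 at 24 h. The groups did not overlap for 6, 7 and 6 members, where 42.4%, 61.8% and 62.7% of all genes did not. Stat2, at 94.2, 83.2 and 65.0 CPM in untreated cells, had log2 differences of 2.03 (SE 0.11), 1.78 (SE 0.11) and 1.31 (SE 0.11) at 4, 12 and 24 h (edgeR adjusted p = 8.53e-11, 3.58e-10 and 1.63e-08). Jak2 was 0.89 higher at 4 h (adjusted p = 0.000104) and not called later (0.15 and −0.29, adjusted p = 0.434 and 0.118). Tyk2 was 1.06 higher at 12 h (adjusted p = 0.00148).

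Ifngr1 was lower than in untreated cells at each time, by −0.60, −1.02 and −0.36 on the log2 scale (edgeR adjusted p = 0.000439, 1.06e-06 and 0.0157). Ifnar1 (0.21, 0.26 and 0.29) and Ifnar2 (0.24, 0.41 and 0.41) were called higher at each time, Jak1 at 4 h (0.45, adjusted p = 0.000569) and 24 h (0.25, adjusted p = 0.0287) and Ifngr2 at 12 h (0.26, adjusted p = 0.0220). Ifnb1 was called at 4 h on 11 counts against 4 (ratio 5.07, 95% exact interval 1.50 to 21.8). The isotype libraries also enter the comparisons with FcMR, so these are not independent of them. With untreated cells at 0 h only, the isotype protein and the hours in culture cannot be told apart.

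Several of the smaller calls against untreated cells were lost when 1 library was left out. Such fits also have fewer libraries, and some log2 differences hardly changed, so a lost call need not mean that it rested on that library. That of Ifnb1 at 4 h (2.37, adjusted p = 0.0294) was lost without untreated replicate 2 (1.87, adjusted p = 0.129) or 3 (1.87, 0.0918) or isotype 4 h replicate 1 (1.46, 0.276). That of Ifnar1 at 4 h (adjusted p = 0.0134) was lost without untreated replicate 1 (0.15, 0.0934), isotype 4 h replicate 1 (0.18, 0.0921) or replicate 2 (0.16, 0.110). That of Ifnar2 at 4 h (adjusted p = 0.0264) was lost without untreated replicate 1 (0.21, 0.0995) or 2 (0.24, 0.0590) or isotype 4 h replicate 3 (0.15, 0.147), and was 0.02 with the authors' factors (0.932). At 24 h that of Ifngr1 was lost without untreated replicate 2 (−0.27, 0.0938) or 3 (−0.33, 0.0553) or any isotype 24 h library (−0.35, 0.0567; −0.30, 0.0984; −0.32, 0.0850), and that of Jak1 without untreated replicate 1 (0.20, 0.125) or isotype 24 h replicate 1 (0.28, 0.0544) or 3 (0.28, 0.0539). That of Ifngr2 at 12 h was lost without untreated replicate 1 (0.18, 0.122). Tyk2 at 4 h (0.59, adjusted p = 0.0578) became a call without untreated replicate 1 (0.74, 0.0456) or isotype 4 h replicate 2 (0.78, 0.0130). The values in brackets are the log2 difference and the edgeR adjusted p.

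Each member had its own nearest pattern among the other tested genes, taken as the highest Pearson r of log2 CPM over the 21 libraries, which share batch, depth and treatment. Stat2 was closest to Usp18 (r = 0.993), which encodes a brake on IFNAR2 signalling, and to Nlrc5 (0.991), a regulator of MHC class I genes. Jak2 was closest to Bcl2a1a (0.976), a survival gene, and Dusp16 (0.967), a phosphatase gene. Ifnar2 was closest to Slpi (0.961), a secreted protease inhibitor gene whose mean was 335 CPM with FcMR and 71.4 CPM with isotype at 24 h, and to Acpp (0.949). Ifngr1 was closest to Il18r1 (0.945), a receptor gene for interleukin 18, and Xylt1 (0.942).

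Jak1 was closest to Acbd3 (0.977) and Copa (0.97), which encode Golgi proteins, Tyk2 to Keap1 (0.968) and Foxp4 (0.956), and Ifnar1 to Ankfy1 and Plat (0.928 each). Ifngr2 was closest to Micall2 (0.927) and Pcbp4 (0.9). For Ifnb1 the nearest were Aff1 (0.926) and Fam53c (0.921), with Spearman rho of 0.743 and 0.722, as its values outside FcMR 4 h rest on few counts.

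Most targets of type I interferon were higher with FcMR than with isotype, and most had also risen with isotype against untreated cells. Of 25 type I interferon target genes, all tested, 23 rose and none fell with FcMR at 4 h, 16 rose at 12 h and 15 at 24 h, again with none lower. Their median log2 difference was 1.06, 0.64 and 0.62, where that of all genes was −0.07, −0.02 and 0.01. Of all genes, 8.62%, 8.61% and 11.4% were called higher. With isotype against untreated cells, 25, 24 and 24 of these targets rose at 4, 12 and 24 h, and 1, Cxcl10, fell at 24 h. Their medians in that comparison were 3.86, 3.66 and 2.59, larger than those of FcMR against isotype. Of all genes, 20.4%, 22% and 21.3% were called higher there, and 20.9% lower at 24 h. Cxcl10, a chemokine gene, went from 502 ± 95.1 to 2232 ± 64.2 CPM at 4 h (SD, n = 3; log2 difference 2.15, edgeR adjusted p = 2.97e-08), and Oasl1, an antiviral gene, from 108 ± 55.7 to 556 ± 49.1 CPM (2.35, adjusted p = 5.21e-05). At 24 h Cxcl10 averaged 5.89 CPM with isotype and 19.1 CPM with FcMR, where untreated cells had 33.7 CPM. For isotype against untreated cells its log2 difference was then −2.52 (edgeR adjusted p = 1.73e-09). In this and the following lists a gene's values are mostly given for the times at which it was among the 2 most changed called genes of its list in its direction, and it may have been called at others. Ifit1, another antiviral gene, was 1.35 higher at 12 h (adjusted p = 1.32e-05) and 1.66 higher at 24 h (adjusted p = 9.75e-07).

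Of 21 interferon gamma target genes, 14, 12 and 11 rose at 4, 12 and 24 h and none fell, with medians of 0.80, 0.66 and 0.69. Of all genes, 8.62%, 8.61% and 11.4% were called higher. With isotype against untreated cells, 15, 16 and 13 of this list rose and 3, 4 and 5 fell, with medians of 1.98, 1.86 and 0.73. Of all genes, 20.4%, 22% and 21.3% were called higher there, and 15.2%, 19.6% and 20.9% lower. Many genes of this list also answer to type I interferon. Cxcl9, a chemokine gene, was 1.71 higher at 4 h (edgeR adjusted p = 7.17e-07). Iigp1, which encodes a GTPase that attacks vacuoles of parasites, was 1.64 higher at 4 h (adjusted p = 5.32e-05) and 1.65 at 12 h (adjusted p = 4.04e-05). Gbp5 was 2.20 higher at 12 h (adjusted p = 7.63e-08), and Gbp2 and Gbp3 were 2.48 and 2.10 higher at 24 h (adjusted p = 1.95e-09 and 4.57e-09). These encode guanylate-binding proteins.

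Of 22 genes whose products sense ligands or carry the signal to Ifnb1, 8, 8 and 9 rose and none fell. The shares of all genes called higher were 8.62%, 8.61% and 11.4%. Irf7, the transcription factor gene that amplifies interferon production, was at 368 ± 20.8 against 133 ± 62.0 CPM at 4 h (1.47, edgeR adjusted p = 0.000911). Cd14, a coreceptor gene for endotoxin and also in the macrophage list, was 1.38, 1.56 and 2.19 higher (adjusted p = 0.00143, 0.000438 and 1.17e-05), and Ifih1, an RNA sensor gene, was 1.06 higher at 12 h and 0.89 at 24 h (adjusted p = 1.31e-05 and 6.58e-05). Irf3, the factor that first switches on Ifnb1, was at 19.4 ± 0.893 against 22.8 ± 9.35 CPM at 4 h (adjusted p = 0.569).

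Of 15 brakes on receptor signalling, 4 rose at each time, none fell at 4 h and Sh2b3 fell at 12 h (−0.38, edgeR adjusted p = 0.0384) and 24 h (−0.56, adjusted p = 0.00248). Among all genes 8.62%, 8.61% and 11.4% were called higher, and 9.13%, 7.49% and 9.44% lower. Socs3 was 1.72, 2.15 and 1.70 higher (adjusted p = 0.00064, 7.11e-05 and 0.000783), Cish 1.84, 0.91 and 0.76 higher (adjusted p = 8.40e-06, 0.00643 and 0.0420), and Socs1 1.52 higher at 12 h (adjusted p = 0.0468). Each encodes an inhibitor of JAK signalling.

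Of the 10 other receptor, JAK, STAT and IRF9 genes, 4 rose and 1 fell at 4 h, and 2 rose and 1 fell at 12 and at 24 h. At 4 h Stat5a (1.22, edgeR adjusted p = 0.00143) and Stat3 (0.88, adjusted p = 2.53e-05) led. Stat4 was 0.81 higher at 12 h (edgeR adjusted p = 0.00358) and 1.27 at 24 h (adjusted p = 4.30e-05). Ifnlr1, the receptor gene for lambda interferons, was lower at 4 h (−0.87, adjusted p = 0.0215) and 12 h (−1.23, adjusted p = 0.00154) at means of at most 6.09 CPM, and Il10rb was lower at 24 h as given above.

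**Figure D5:**
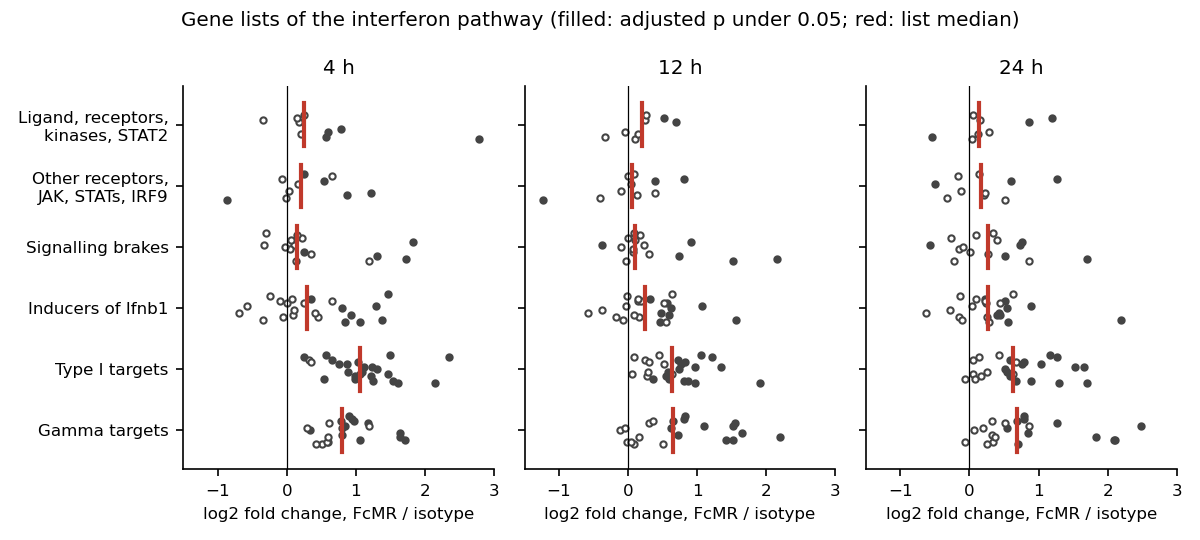
Log2 fold change of FcMR over isotype at 4, 12 and 24 h for each tested gene of the 6 lists; filled points passed the test (edgeR adjusted p under 0.05) and red bars are list medians, with Ifnb1 shown at 4 h only. At 4 h the median of the type I targets (1.06) lies to the right of that of the 9 genes of ligand, receptors, kinases and STAT2 (0.25), while single genes of the 2 lists overlap.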

How the data were processed

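Per the submitters' processing notes, CASAVA 1.8.2, kallisto 0.44.0 and DESeq2 were used with builds mm10 and GRCm38; their roles and the annotation version are not given in the sources used here. Per the labels' protocols, TruSeq RNA libraries were read as 75 bp single ends. The authors deposited estimated counts per gene, already whole numbers, for 23250 genes with at least 10 counts each in sum. The authors' second table, a normalized signal, equals these divided by a factor per gene and library; it was used only for that factor.

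IDs were matched without version to GENCODE M21 (23187 with a symbol), and exon lengths and overlaps were taken from it. A single edgeR quasi-likelihood fit (edgeR 4.0.16, R 4.3.3) of the 21 libraries had a coefficient per group, TMM scaling and filterByExpr with its minimum of 10 counts, which Ifnb1 passed at 1.05 CPM in 3 libraries. Benjamini-Hochberg adjustment ran over 13468 genes. Levels are CPM after TMM scaling, and count ratios of Ifnb1 have none. A joint test of 2 contrasts asked whether the FcMR effect changed over 4, 12 and 24 h. The model was tested on counts simulated for 13468 genes with dispersions estimated from these libraries and 200 genes changed in FcMR at 4 h. FcMR against isotype at 4 h then called 83 of 100 genes changed 2-fold, 13 of 100 changed 1.41-fold and 2 unchanged genes. The changed genes were drawn from well-covered genes only, so these rates do not cover genes as low as Ifnb1. Each gene was simulated independently and without the GC tilt, so the error on the real libraries may differ. GC correction used a lowess curve (span 0.3) of log2 CPM (prior count 2) on transcript GC, known for 13440 genes tested. Alternatives were DESeq2 1.42.0, RLE factors, the authors' factors, GC correction, a replicate block, a filter at a mean of 10 counts or none, and fits without some libraries.

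Members, lists and alternatives were chosen with earlier results of these data known. The text names all 9 members, per list and time up to 2 called genes from each end of the fold changes, Mrc1, and the 2 tested genes nearest to each member (average log2 CPM of at least 1); a gene that this rule names is not reported here. Irf3, Usp18, Kdr and other marker genes were named after their values were seen. Usp18, Irf7, Irf9, Irf1 and Socs1 are each in 2 lists. Replicates correlated at r = 0.92 to 0.987, and since the lowest chi-square per degree of freedom between their counts was 3.09, beyond sampling noise, all were kept as separate libraries.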

Additional observations from a re-analysis of the deposited data

Results flagged for a closer look

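Stat2 was the member whose difference between FcMR and isotype changed over time: 0.78, 0.27 and 0.06 on the log2 scale at 4, 12 and 24 h, with an edgeR adjusted p of 0.00724 for the joint test. At 4 h the FcMR libraries, at 538 to 585 CPM, were above all 3 isotype libraries, and at 24 h 1 of 3 FcMR libraries was above them. No explanation of this was tested.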

How the results depend on the processing

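Of 59 member results under 1039 alternative values, 939 kept their direction and side of the threshold, 37 lost a call, 55 gained a call and 8 reversed. Reversed values were all outside the threshold. With the authors' factors they were 0.10 for Ifngr2 (isotype against untreated, 4 h) and −0.05 for Stat2 (FcMR against isotype, 24 h). Tyk2 at 12 h (FcMR against isotype) became 0.06 with GC correction, 0.06 with the replicate block and GC correction, 0.15 without both libraries out of title order and 0.15 without FcMR 12 h replicate 1. Tyk2 at 24 h (isotype against untreated) became −0.07 without untreated replicate 2 and −0.04 without replicate 3. Over the libraries left out the 2 ran from −0.16 to 0.15 and from −0.07 to 0.17. For the joint test no direction was read; the adjusted p was compared instead, a choice made after seeing that the change from 4 to 24 h had either sign for Jak1 and Tyk2.

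Members called with FcMR at 12 h (2) were 4 with DESeq2, 5 with GC correction and 5 with the block and GC correction. Against untreated cells they were 4 without an expression filter and 4 with only the 6 libraries at 4 h (7), and 3 without the filter at 24 h (5). In the joint test (1) they were 2 with a mean of at least 10 counts, DESeq2, the replicate block or both libraries left out, and 3 with GC correction, with or without the block. Leaving out 1 library gave 4 to 5, 1 to 3 and 3 members with FcMR at 4, 12 and 24 h, 5 to 7, 6 and 3 to 4 against untreated cells, and 1 to 3 in the joint test.

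Over all genes, FcMR calls at 4 h (2390) were 3684 with GC correction, 3877 with the block too, 3898 without both libraries and 868 with only the 6 libraries. At 12 h (2169) they were 3338 and 3507 with GC correction without and with the block. Against untreated cells at 4 h (4792) the 6 libraries gave 2881. Joint calls (1484) were 925 without a filter, 2922 with GC correction, 3139 with the block too and 2616 without both libraries. Leaving out 1 library gave 1589 to 3151, 1570 to 1841 and 2091 to 3135 genes with FcMR, 3784 to 6251, 4577 to 5076 and 4876 to 5180 against untreated cells, and 973 to 2294 jointly. The 4 h count was 1589 without FcMR 4 h replicate 2, and the joint count 973 without it and 2294 without isotype 4 h replicate 3. The causes were not tested.

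Same-numbered libraries showed little common deviation, though this check cannot exclude pairing. For FcMR against isotype at 4, 12 and 24 h the mean correlation of their deviations was −0.0708, 0.106 and 0.0138. There 1, 3 and 3 of 6 libraries correlated best with their own number. For isotype against untreated cells the means were 0.0875, −0.0262 and 0.0203, and the numbers 3, 1 and 4 of 6. With the replicate number as a block, 2541, 2290 and 2911 genes were called with FcMR, 5072, 5753 and 5849 against untreated cells and 1620 jointly. Depth limits Ifnb1 most: 3 counts stood for up to 0.542 CPM.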

Other observations

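Markers of neutrophils and of mast cells, basophils and eosinophils were lower at 24 h than in untreated cells. Neutrophil markers summed to 1398 to 1623 CPM in untreated cells, 992 to 1177 CPM in FcMR 4 h and 1012 to 1354 CPM in isotype 4 h libraries, and to 204 to 228 and 183 to 218 CPM at 24 h. Mast cell, basophil and eosinophil markers summed to 609 to 812 CPM in untreated cells and 63.9 to 98.8 CPM in FcMR 24 h libraries, where isotype 24 h libraries had 65.1 to 104 CPM. B cell markers summed to 11.4 to 42.5 CPM and erythroid markers to at most 24.7 CPM in any library. The part of such cells in the differences from untreated cells was not tested.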
